A study of Mus musculus with 106 samples.

Results

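The 34 genes described here act in N-linked glycosylation, from the making of dolichol-linked sugars to the first trimming and branching of the glycan. They were listed by symbol to cover the synthesis of lipid-linked sugars, the transfer to protein and early trimming. The list was drawn from what is known of the pathway, but with earlier results of these data known. All 34 were found among the 55401 mouse genes in the count table, of which 21897 are protein-coding. They fall into 6 roles. *Dolk*, *Dpm1*, *Dpm2*, *Dpm3*, *Alg5* and *Mpdu1* make or use dolichol-linked sugar donors. *Dpagt1*, *Alg13*, *Alg14*, *Alg1*, *Alg2* and *Alg11* assemble the lipid-linked oligosaccharide on the cytosolic face of the endoplasmic reticulum (ER), and *Alg3*, *Alg9*, *Alg12*, *Alg6*, *Alg8* and *Alg10b* on its lumenal face. *Stt3a*, *Stt3b*, *Rpn1*, *Rpn2*, *Ddost*, *Dad1*, *Ostc*, *Tusc3* and *Magt1* encode subunits of the oligosaccharyltransferase. *Mogs*, *Ganab*, *Prkcsh*, *Uggt1* and *Man1b1* act in trimming and the folding check in the ER, and *Mgat1* and *Mgat2* start branches in the Golgi.

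Expression was measured in mice with a HdhQ200 allele beside the HdhQ7 allele (Hdh Q7/Q200, HD) and in their Hdh Q7/Q7 littermates (control), at about 9 months on a 129S4 background. RiboTag IP libraries hold mRNA bound to HA-tagged ribosomes of the cells in which a Cre driver was active, and total RNA libraries hold mRNA of all cells in the homogenate. The mice were heterozygous for the RiboTag allele and for Gad2-IRES-Cre, PV-IRES-Cre or vGluT2-IRES-Cre. The SST line is not among the cohorts described in the methods used here, so its driver, age and breeding are not given there. Nor is it given whether its controls were littermates. Mouse labels of this line begin with BR in HD but with BR or Z in controls, in IPs and in total RNA. What the 2 label series stand for is not given, and their part in the SST comparisons was not tested. Cerebrum means the brain without cerebellum and olfactory bulbs. In the cerebrum there were IPs from 6 control and 6 HD mice for Gad2, 6 and 5 for PV, 5 and 4 for SST, and 6 and 6 for vGluT2. In the cerebellum there were 6 and 6 for Gad2 and 5 and 6 for vGluT2. Each line and region had total RNA of 3 control and 3 HD mice, except 4 and 3 for SST and 4 and 4 for the vGluT2 cerebellum. Each PV IP pooled duplicate IPs of a homogenate. In 3 HD IPs (1 each of PV, cerebellar Gad2 and cerebral vGluT2) reads were 150 bases long instead of 100. All other IPs of these 3 groups were read at 100 bases. HD against control called 0 members in each group with and without the longer-read library, a count too low to show an effect of read length. Of all genes, 4, 0 and 1 were called without it in PV, cerebellar Gad2 and cerebral vGluT2 IPs, in place of 6, 2 and 0. Library totals ran from 21905221 to 107753586 estimated counts (median 35866725.5), and levels are given as TMM-normalized CPM, counts scaled to a common total for each library.

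N-linked glycans are built sugar by sugar on the lipid dolichol, first on the cytosolic and then on the lumenal side of the ER membrane, and the finished oligosaccharide is moved as a block onto asparagines of proteins entering the ER. Glucosidases, a glucosyltransferase that senses misfolding and mannosidases then shape the glycan while the protein folds, and Golgi enzymes build complex branches. Neuronal receptors, channels and adhesion molecules carry such glycans, and inherited defects in many of these genes cause congenital disorders of glycosylation with neurological signs.

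The targeted cell types were checked against marker genes in the control IPs. The 3 GABAergic markers (most abundant *Gad1*) summed to medians of 2882 CPM in cerebral Gad2, 2835 in PV and 1478 in SST IPs, against 78.8 in cerebral vGluT2 IPs. *Sst* ran from 895 to 1647 CPM in SST IPs and 688 to 907 CPM in Gad2 IPs, with 74.1 to 146 CPM in PV IPs. *Pvalb* overlapped between PV IPs (499 to 768 CPM) and cerebral Gad2 IPs (316 to 632 CPM). *Slc17a6*, the gene of the vGluT2 driver, stood at 42.8 to 159.7 CPM in cerebral vGluT2 IPs and 83.5 to 152 CPM in PV IPs, so this marker did not separate them. *Slc17a7* was at 1793 to 2415 CPM in cerebral vGluT2 IPs, 785 to 1029 CPM in PV, 634 to 996 CPM in SST and 121 to 421 CPM in Gad2 IPs. The 6 oligodendrocyte markers summed to 1683 to 2726 CPM in PV and 2967 to 5096 CPM in SST IPs, above 429 to 1655 CPM in Gad2 and 333 to 740.0 CPM in vGluT2 IPs of the cerebrum. In the cerebellum, the 4 Purkinje cell markers summed to 4376 to 8224 CPM in Gad2 IPs, and the 4 granule cell markers to 3995 to 5454 CPM in vGluT2 IPs. Among HD PV IPs, Purkinje markers reached 1052 CPM in 1 library, where the median was 93.3 CPM.

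Levels of different genes were compared as CPM per kb of mean transcript length. In the 6 control IP groups, the role medians were highest for oligosaccharyltransferase subunits (24.3 to 42.7 CPM per kb) and ER trimming (29.3 to 41.4), and lowest for lumenal assembly (6.80 to 8.07). Sugar donors (11.2 to 27.6), Golgi branching (13.8 to 20) and cytosolic assembly (9.82 to 14.8) lay between them. *Tusc3*, an oxidoreductase subunit of the *Stt3b* complex, led in cerebral Gad2 IPs at 212 ± 22.6 CPM per kb (SD, n = 6) and in cerebral vGluT2 IPs at 237 ± 22.7 (SD, n = 6). *Alg2*, which adds mannoses on the cytosolic face, was at 104 ± 2.64 and 84.8 ± 10.8 CPM per kb there, well outside the spread of *Tusc3*, and ranked 2 with this length but 5 and 6 with the longest transcript. In PV IPs the order was the opposite, with *Alg2* at 123 ± 2.50 and *Tusc3* at 84.7 ± 5.02 CPM per kb. In SST IPs these 2 genes did not differ beyond their spread (126 ± 8.25 and 120.2 ± 9.13, SD, n = 5). In cerebellar Gad2 IPs, *Alg2* (95.3 ± 9.67 CPM per kb), *Tusc3* (84.3 ± 9.70) and *Rpn2* (84.0 ± 12.2) lay within each other's spread. In cerebellar vGluT2 IPs *Alg2* was at 98.2 ± 9.74 CPM per kb and next was *Rpn2* at 70.4 ± 6.89. The place of *Alg2* depends on the length used, since with the longest transcript *Alg2* ranked 2 in SST and cerebellar vGluT2 IPs and 4 in cerebellar Gad2 IPs, while the lead of *Tusc3* in the cerebral Gad2 and vGluT2 IPs was kept.

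*Magt1*, the paralog that can take the place of *Tusc3* in the *Stt3b* complex, was lowest of the 34 genes in cerebral Gad2 IPs (2.22 ± 0.731 CPM per kb), cerebral vGluT2 IPs (1.25 ± 0.333) and cerebellar vGluT2 IPs (2.33 ± 1.0030) with either length. Per kb, *Tusc3* exceeded *Magt1* 196-fold in cerebral vGluT2 and 101-fold in cerebral Gad2 IPs, 31.5-fold and 24.3-fold in the vGluT2 and Gad2 IPs of the cerebellum, and 14.8-fold and 14.7-fold in PV and SST IPs (geometric means of the ratios in the control libraries). The catalytic subunits *Stt3a* and *Stt3b* changed order with the length used in 4 of 6 groups, so no order is stated for them.

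**Figure D1:**
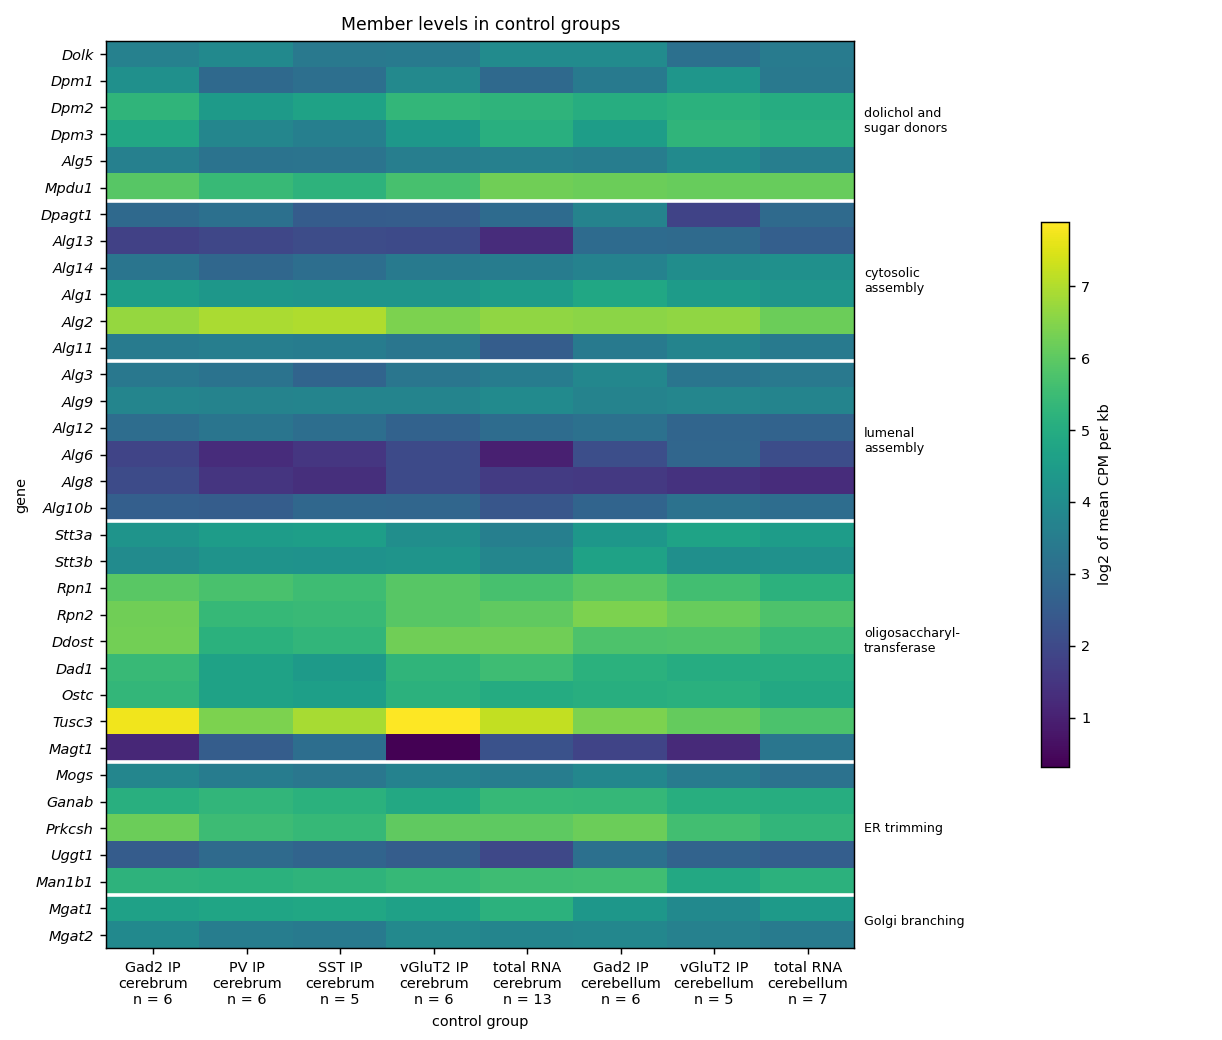
Level of each of the 34 genes, as log2 of the mean CPM per kb of mean transcript length, in the 6 control IP groups and in control total RNA of both regions, as colors from dark (low) to yellow (high), with genes ordered by role. Tusc3 stands at 212 CPM per kb in cerebral Gad2 IPs against 2.22 for Magt1.

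Differences between cell types were tested in the control IPs with edgeR's quasi-likelihood test, on 14571 genes. The same test was used in all later comparisons, with the number of genes differing between them. A gene was called where its p, after Benjamini-Hochberg adjustment, was 0.05 or less. Log2 fold changes are given ± SE, followed by the number of libraries of the group compared that lay above or below the median of the other group. The 6 contrasts share groups of control libraries, so their counts are not independent of each other. All 34 genes passed the filter on low counts in every comparison. Between cerebral vGluT2 and Gad2 IPs, 4 members were called, all lower in vGluT2 IPs, against 30.5% of all genes (15.6% higher and 14.9% lower), so the members' share of 11.8% lay below that of all genes. Without TMM it was nearer, with 9 members (26.5%) beside 31.4% of all genes. With the 2 groups fitted alone it was 8.82% beside 29.9%. The median log2 fold change was -0.08 over the members and 0.01 over all genes tested. Between PV and cerebral Gad2 IPs, 21 were called, 5 higher and 16 lower in PV IPs, beside 53.8% of all genes (28.6% and 25.2%), with medians of -0.23 and 0.06. All 6 sugar donor genes and 8 of 9 oligosaccharyltransferase genes were among them. PV and SST IPs differed in 4 members (3 higher and 1 lower in PV IPs), a share of 11.8% where all genes gave 15.1% (8.12% and 6.95%), and the medians were 0.02 and -0.07.

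In the cerebellum, 20 members were called between vGluT2 and Gad2 IPs, 4 higher and 16 lower in vGluT2 IPs, beside 58% of all genes (29.5% and 28.5%), with medians of -0.19 over members and 0.02 over all genes. The 5 genes of ER trimming were all called lower. Between cerebellum and cerebrum, 14 members were called in Gad2 IPs (10 higher and 4 lower in the cerebellum), against 55.2% of all genes (27.1% and 28.2%), and the medians were 0.03 and 0.0027. These regions come from the same mice, and with the mouse as a block 10 members were called (6 higher and 4 lower), the same numbers as with the 2 groups fitted alone. In vGluT2 IPs, 19 were called (9 higher and 10 lower), against 63.2% (31% and 32.2%), with medians of -0.00035 and -0.01. The members' shares in these 3 contrasts were 58.8%, 41.2% and 55.9%, and 2 members, *Alg9* and *Alg10b*, which add a mannose and a glucose in the lumen, were called in no contrast.

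Among genes of the sugar donors, *Dolk* encodes dolichol kinase. In the cerebrum it stood at 19.6 to 31.9 CPM (median 25.3) in Gad2 IPs and 25.2 to 35.9 CPM (median 31.7) in PV IPs. In SST IPs it was at 18.2, 19.1, 19.7, 23.4 and 28.1 CPM, and in vGluT2 IPs at 18.3 to 24.7 CPM (median 22.5). The PV IPs had the highest median and overlapped the Gad2 and SST IPs. Against SST IPs they were called higher (log2 fold change 0.54 ± 0.12, adjusted p = 0.00255, 6 of 6 above). In the cerebellum *Dolk* stood at 29.4 to 37.3 CPM (median 33.4) in Gad2 IPs and 17.2, 17.5, 17.6, 19.3 and 19.8 CPM in vGluT2 IPs. These groups did not overlap, and the vGluT2 IPs were lower (log2 fold change -0.90 ± 0.13, adjusted p = 2.29e-07, 5 of 5 below). *Dpm1* is the catalytic and *Dpm3* an anchoring subunit of dolichol-phosphate mannose synthase. *Dpm1* ran at 20.4 to 40.6 CPM (median 27.7) in Gad2 IPs and 7.42 to 15.6 CPM (median 12.8) in PV IPs. The values were 9.63, 10.8, 14.0, 14.6 and 23.0 CPM in SST IPs and 20.9 to 28.0 CPM (median 25.0) in vGluT2 IPs. Every PV IP lay below every Gad2 and vGluT2 IP of the cerebrum (against Gad2 IPs, log2 fold change -1.19 ± 0.22, adjusted p = 4.31e-05, 6 of 6 below). In the cerebellum it was at 10.52 to 29.5 CPM (median 16.1) in Gad2 IPs and 25.9, 27.2, 34.5, 38.8 and 39.7 CPM in vGluT2 IPs. The ranges overlapped, with vGluT2 IPs higher (log2 fold change 0.85 ± 0.23, adjusted p = 0.00199, 5 of 5 above). The cerebellar Gad2 IPs were lower than the cerebral ones, with overlap (log2 fold change -0.69 ± 0.22, adjusted p = 0.00813, 5 of 6 below). *Dpm1* overlaps the protein-coding gene *Gm20716* on the same strand over 21317 bases, so its counts are uncertain. All 2104 bases of *Dolk* overlap *Gm28038* on the opposite strand. The libraries are stranded and the authors' pipeline ran with default settings, but use of strand in counting is not given, so the counts of *Dolk* are uncertain too. The same holds for *Mgat2* (2614 bases, all of the gene, opposite *Gm49383*), and on the same strand *Ostc* overlaps *Gm42998* over 2371 bases. In all, 10 members overlap a gene on the opposite strand. Shorter overlaps with protein-coding genes there are those of *Alg1* (761 bases), *Rpn2* (533), *Alg9* (502), *Alg3* (143 or fewer with each gene) and *Mpdu1* (31).

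*Dpm3* was measured at 10.9 to 21.6 CPM (median 18.7) in Gad2 IPs and 4.95 to 10.7 CPM (median 8.61) in PV IPs. SST IPs held 6.03, 6.60, 7.67, 7.91 and 8.74 CPM and vGluT2 IPs 8.55 to 18.1 CPM (median 11.7). All 6 PV IPs were below all Gad2 IPs, by a narrow margin (log2 fold change -1.03 ± 0.21, adjusted p = 0.000158, 6 of 6 below). In the cerebellum *Dpm3* was at 9.56 to 18.2 CPM (median 14.4) in Gad2 IPs and 15.8, 17.1, 22.9, 25.8 and 36.9 CPM in vGluT2 IPs. The vGluT2 IPs were higher than the Gad2 IPs with overlap (log2 fold change 0.72 ± 0.22, adjusted p = 0.00578, 5 of 5 above), a call that was lost without vGluT2 replicate 1 (log2 fold change 0.48, adjusted p = 0.0587, 0.00197 to 0.0587 over all alternatives). They were also higher than the cerebral vGluT2 IPs, again with overlap (log2 fold change 0.86 ± 0.22, adjusted p = 0.00111, 5 of 5 above). Of the other 3 genes of this role, *Alg5*, which makes the glucose donor, *Mpdu1*, needed for use of the mannose and glucose donors, and *Dpm2*, a further subunit of the synthase, were each called lower in PV than in cerebral Gad2 IPs. Levels of the length measure and of oligodendrocyte markers also differed between these groups. The length measure, the median log2 CPM of long transcripts minus that of short ones, was 0.27 to 0.91 in PV IPs and -0.47 to 0.20 in cerebral Gad2 IPs. Its part in the PV results was not tested, nor was that of the oligodendrocyte markers given above.

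On the cytosolic face, *Dpagt1* adds the first sugar, as a phosphate, to dolichol phosphate. In the cerebrum *Dpagt1* was at 13.9 to 19.7 CPM (median 16.1) in Gad2 IPs and 15.6 to 21.3 CPM (median 19.99) in PV IPs. In SST IPs it was at 9.55, 11.9, 13.6, 14.1 and 14.5 CPM, and in vGluT2 IPs at 11.4 to 15.9 CPM (median 12.8). PV IPs did not overlap SST IPs and were higher (log2 fold change 0.58 ± 0.12, adjusted p = 0.00114, 6 of 6 above). The vGluT2 IPs were lower than Gad2 IPs, with 5 of 6 below all Gad2 libraries (log2 fold change -0.32 ± 0.12, adjusted p = 0.0353, 6 of 6 below). The latter call was lost without Gad2 replicate 4 or 6 (adjusted p = 0.117 and 0.0727) and without vGluT2 replicate 2, 3, 4 or 5 (0.0738, 0.0912, 0.0570 and 0.0878, with 0.00687 to 0.117 over all alternatives). Without these libraries the log2 fold change was -0.25 to -0.32. In the cerebellum *Dpagt1* was at 23.2 to 33.1 CPM (median 28.7) in Gad2 IPs and 6.63, 7.52, 8.24, 8.37 and 8.42 CPM in vGluT2 IPs. Gad2 and vGluT2 IPs stood far apart with no overlap (log2 fold change -1.90 ± 0.13, adjusted p = 1.68e-14, 5 of 5 below). Relative to the cerebrum, *Dpagt1* was higher in cerebellar Gad2 IPs (0.78 ± 0.12, adjusted p = 7.42e-07, 6 of 6 above) and lower in cerebellar vGluT2 IPs (-0.79 ± 0.13, adjusted p = 1.52e-06, 5 of 5 below), again without overlap in either. *Dpagt1* overlaps the antisense gene *Gm48853* over 1217 bases, so its counts are uncertain for the same reason as those of *Dolk*.

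*Alg13*, a subunit of the enzyme for the second sugar, was low throughout the cerebrum, at 2.82 to 3.98 CPM (median 3.42) in Gad2 IPs and 2.21 to 4.54 CPM (median 3.79) in PV IPs. The values were 2.91, 3.87, 4.12, 4.39 and 5.22 CPM in SST IPs and 1.52 to 4.99 CPM (median 4.35) in vGluT2 IPs. In the cerebellum it was at 5.08 to 14.6 CPM (median 6.31) in Gad2 IPs and 6.83, 7.11, 7.17, 7.68 and 7.80 CPM in vGluT2 IPs. All cerebellar libraries lay above all cerebral ones of their line, in Gad2 IPs (log2 fold change 1.17 ± 0.23, adjusted p = 5.74e-05, 6 of 6 above) and in vGluT2 IPs (log2 fold change 0.85 ± 0.24, adjusted p = 0.00227, 5 of 5 above). In the cerebrum *Alg2* ran at 178 to 190.4 CPM (median 183) in Gad2 IPs and 212 to 223 CPM (median 219) in PV IPs. SST IPs held 201, 221, 224, 235 and 238 CPM and vGluT2 IPs 113 to 167 CPM (median 155). The vGluT2 IPs were below (log2 fold change -0.28 ± 0.08, adjusted p = 0.00591, 6 of 6 below) and the PV IPs above (0.26 ± 0.08, adjusted p = 0.00523, 6 of 6 above) all Gad2 IPs. In the cerebellum its values, 153 to 198 CPM (median 165) in Gad2 IPs and 146, 171, 181, 186 and 189 CPM in vGluT2 IPs, overlapped. *Alg1*, *Alg11* and *Alg14*, which add the first mannose, the last cytosolic mannoses and, with *Alg13*, the second sugar, were called in 1, 1 and 3 of the 6 contrasts.

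On the lumenal face, *Alg3* adds the first mannose. In the cerebrum it was at 8.73 to 14.1 CPM (median 11.5) in Gad2 IPs and 7.79 to 12.9 CPM (median 10.8) in PV IPs. In SST IPs it was at 7.33, 7.35, 7.52, 8.34 and 8.44 CPM, and in vGluT2 IPs at 9.14 to 13.3 CPM (median 10.95). PV IPs were above SST IPs with 1 of 6 overlapping (log2 fold change 0.45 ± 0.14, adjusted p = 0.0326, 6 of 6 above). This call was lost without PV replicate 3, 4, 5 or 6 (adjusted p = 0.0942, 0.0509, 0.0510 and 0.0733) and without SST replicate 1, 4 or 6 (0.0727, 0.0616 and 0.0722, with 0.0113 to 0.0942 over all alternatives). Without these libraries the log2 fold change was 0.39 to 0.45. Cerebellar values were 14.7 to 18.6 CPM (median 16.2) in Gad2 IPs and 9.17, 9.49, 10.1, 13.2 and 13.8 CPM in vGluT2 IPs. These 2 groups did not overlap, with vGluT2 IPs lower (log2 fold change -0.58 ± 0.14, adjusted p = 0.000835, 5 of 5 below). The cerebellar Gad2 IPs were above all cerebral ones (0.46 ± 0.14, adjusted p = 0.00484, 6 of 6 above). *Alg6* and *Alg8*, which add glucoses, and *Alg12*, which adds a mannose, were called in 3, 2 and 1 contrasts.

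Of the oligosaccharyltransferase, *Tusc3* varied widely between cell types. In cerebral IPs it was at 237 to 313 CPM (median 253) in Gad2 IPs and 92.7 to 111 CPM (median 105) in PV IPs. The values were 134, 139, 146, 156 and 161 CPM in SST IPs and 239.9 to 317 CPM (median 301) in vGluT2 IPs. Gad2 and vGluT2 IPs were high and overlapped, SST IPs were lower than all of these, and PV IPs were below all others. PV IPs fell short of Gad2 IPs (log2 fold change -1.31 ± 0.09, adjusted p = 5.56e-13, 6 of 6 below) and of SST IPs (log2 fold change -0.52 ± 0.10, adjusted p = 0.000203, 6 of 6 below). Cerebellar IPs held 89.0 to 123 CPM (median 101) in Gad2 IPs and 69.3, 78.4, 84.7, 87.2 and 104 CPM in vGluT2 IPs. They lay below all cerebral IPs of their line in Gad2 (log2 fold change -1.34 ± 0.09, adjusted p = 1.98e-14, 6 of 6 below) and in vGluT2 (log2 fold change -1.83 ± 0.10, adjusted p = 3.63e-17, 5 of 5 below).

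In the cerebrum *Magt1* was at 2.56 to 8.79 CPM (median 6.65) in Gad2 IPs and 11.6 to 20.2 CPM (median 17.0) in PV IPs. SST IPs held 16.5, 18.7, 24.5, 29.0 and 29.7 CPM and vGluT2 IPs 2.14 to 4.64 CPM (median 3.66). Unlike for *Tusc3*, PV and SST IPs were above all Gad2 and vGluT2 IPs (PV against Gad2, log2 fold change 1.41 ± 0.25, adjusted p = 2.53e-05, 6 of 6 above). The vGluT2 IPs were below Gad2 IPs with overlap (log2 fold change -0.81 ± 0.26, adjusted p = 0.0152, 6 of 6 below). In the cerebellum *Magt1* was at 6.36 to 17.3 CPM (median 9.51) in Gad2 IPs and 4.12, 4.71, 6.07, 6.71 and 11.3 CPM in vGluT2 IPs. Overlap was wide between these 2 groups. Lower levels in vGluT2 IPs were called (log2 fold change -0.70 ± 0.27, adjusted p = 0.0251, 4 of 5 below), but not without Gad2 replicate 5 (adjusted p = 0.108) or vGluT2 replicate 1, 3 or 4 (0.0799, 0.0734 and 0.0512, with 0.00290 to 0.108 over all alternatives). Without these libraries the log2 fold change was -0.48 to -0.67. Between cerebellum and cerebrum, *Magt1* was higher in cerebellar Gad2 IPs (log2 fold change 0.72 ± 0.25, adjusted p = 0.0161, 5 of 6 above). This call was lost with the mouse as a block (adjusted p = 0.0507), without cerebellar replicate 5 (0.0831) and without cerebral replicate 4 (0.0509, with 0.00705 to 0.0831 over all alternatives). The log2 fold changes in these fits were 0.67, 0.51 and 0.56. *Magt1* was called higher too in cerebellar vGluT2 IPs (log2 fold change 0.83 ± 0.27, adjusted p = 0.00754, 5 of 5 above). This call was lost without cerebellar replicate 2 (log2 fold change 0.56, adjusted p = 0.0689, 0.00364 to 0.0689 over all alternatives).

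*Rpn2* and *Ddost* are shared subunits of the oligosaccharyltransferase complexes. *Rpn2* was at 170.2 to 232 CPM (median 204) in Gad2 IPs and 105 to 128 CPM (median 112) in PV IPs. In SST IPs it was at 93.5, 104, 125, 128 and 133 CPM, and in vGluT2 IPs at 152 to 174 CPM (median 164). PV IPs were below all Gad2 IPs (log2 fold change -0.83 ± 0.10, adjusted p = 4.07e-08, 6 of 6 below). Of the vGluT2 IPs, 5 of 6 were below all Gad2 IPs (log2 fold change -0.30 ± 0.10, adjusted p = 0.0201, 6 of 6 below), which was not called without Gad2 replicate 4 (log2 fold change -0.25, adjusted p = 0.0653, 0.00103 to 0.0653 over all alternatives). Without that library 2 members were called between vGluT2 and Gad2 IPs, and 8 without vGluT2 replicate 1. *Ddost* was measured at 147 to 192 CPM (median 162) in Gad2 IPs and 65.6 to 81.8 CPM (median 77.0) in PV IPs. The values were 64.0, 81.5, 85.7, 91.3 and 95.3 CPM in SST IPs and 142 to 188 CPM (median 159) in vGluT2 IPs. PV IPs lay below all Gad2 and vGluT2 IPs, and their difference from Gad2 IPs was a log2 fold change of -1.11 ± 0.11 (adjusted p = 7.97e-10, 6 of 6 below).

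*Stt3a* and *Stt3b* encode the catalytic subunits of complexes that act during translocation and, for *Stt3b*, also after it. *Stt3b* was at 55.7 to 73.2 CPM (median 67.5) in Gad2 IPs and 61.4 to 91.0 CPM (median 79.0) in PV IPs. SST IPs held 67.8, 70.5, 75.0, 85.5 and 86.6 CPM and vGluT2 IPs 53.4 to 90.9 CPM (median 83.0). In the cerebellum it was at 93.8 to 122 CPM (median 112) in Gad2 IPs and 66.0, 68.2, 69.1, 75.2 and 83.6 CPM in vGluT2 IPs. The cerebral groups overlapped, and all cerebellar Gad2 IPs were above all cerebral Gad2 IPs (log2 fold change 0.70 ± 0.11, adjusted p = 8.96e-07, 6 of 6 above). *Stt3a* was at 22.5 to 42.3 CPM (median 36.2) in Gad2 IPs and 23.6 to 53.9 CPM (median 41.8) in PV IPs. In SST IPs it was at 29.2, 40.8, 46.4, 48.1 and 55.8 CPM, and in vGluT2 IPs at 14.96 to 37.7 CPM (median 33.5). In the cerebellum its values were 23.0 to 46.5 CPM (median 38.2) in Gad2 IPs and 39.5, 42.1, 46.5, 49.1 and 64.7 CPM in vGluT2 IPs. Its Gad2 IPs of the 2 regions overlapped and did not pass (0.07 ± 0.19, adjusted p = 0.795, 5 of 6 above). It was called in 1 contrast, higher in cerebellar than in cerebral vGluT2 IPs (0.57 ± 0.20, adjusted p = 0.0143, 5 of 5 above).

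In ER trimming, *Man1b1* encodes a mannosidase that marks misfolded glycoproteins. Cerebral IPs overlapped, at 70.7 to 97.8 CPM (median 84.9) in Gad2 IPs and 72.9 to 102 CPM (median 76.8) in PV IPs. The values were 77.6, 84.7, 85.1, 86.2 and 98.4 CPM in SST IPs and 75.4 to 119 CPM (median 93.3) in vGluT2 IPs. In the cerebellum *Man1b1* stood at 97.1 to 122 CPM (median 105) in Gad2 IPs and 59.04, 65.2, 67.0, 68.8 and 73.0 CPM in vGluT2 IPs. The vGluT2 IPs were all below the Gad2 IPs (log2 fold change -0.73 ± 0.11, adjusted p = 9.47e-07, 5 of 5 below). *Mogs*, *Ganab*, *Prkcsh* and *Uggt1*, which encode glucosidase I, the 2 subunits of glucosidase II and the glucosyltransferase that senses misfolding, were called lower in the same contrast, with adjusted p from 0.000161 to 0.0497 and log2 fold changes from -0.35 to -0.62. *Mgat1*, which begins the complex branches, was at 53.7 to 80.9 CPM (median 57.2) in cerebral and 30.0, 36.3, 37.4, 39.3 and 40.4 CPM in cerebellar vGluT2 IPs. No cerebellar library reached the cerebral range (log2 fold change -0.80 ± 0.12, adjusted p = 2.51e-07, 5 of 5 below). *Mgat2*, which acts next, was called in 2 of the 6 contrasts.

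**Figure D2:**
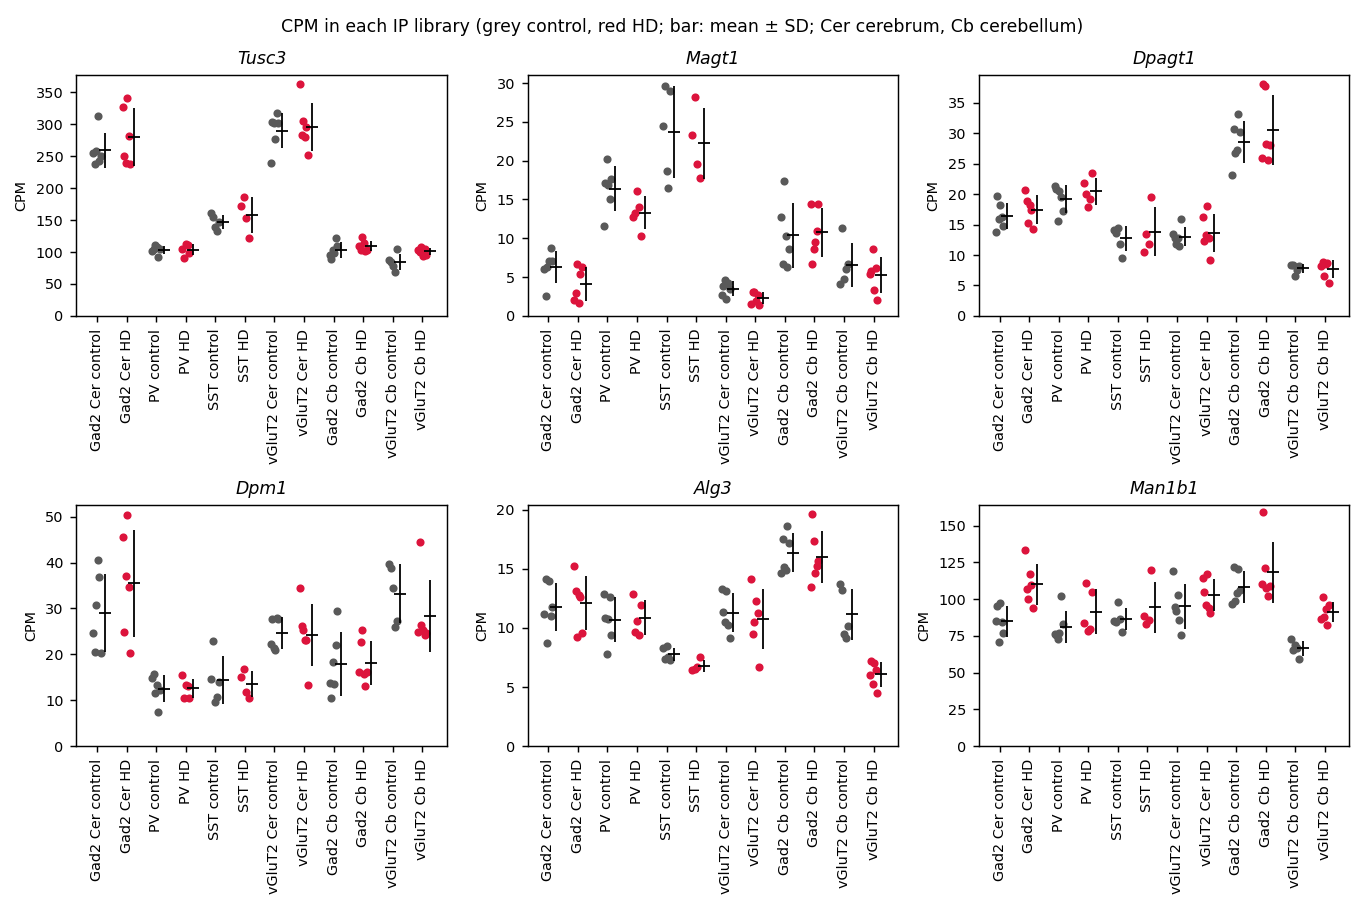
TMM-normalized CPM of Tusc3, Magt1, Dpagt1, Dpm1, Alg3 and Man1b1 in each IP library (points, control in grey and HD in red) of the 6 cell types, with the group mean and SD as a cross and a bar. In controls, Tusc3 spans 237 to 313 CPM in cerebral Gad2 IPs and 92.7 to 110.5 CPM in PV IPs, while Magt1 spans 2.56 to 8.79 and 11.6 to 20.2 CPM.

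IP libraries were then compared with total RNA of the same region, with HD and control together and genotype as a covariate. The cerebral IP groups share 25 total RNA libraries and the cerebellar groups 14, so these counts are not independent either. Glial markers summed lower in IPs. For 6 astrocyte markers (most abundant *Apoe* in total RNA) the sums in Gad2, PV, SST and vGluT2 IPs of the cerebrum were 162 to 609, 319.5 to 484, 454 to 953 and 106 to 316 CPM, against 2402 to 5109 CPM in total RNA, without overlap. For 6 oligodendrocyte markers (most abundant *Mbp* in total RNA) they were 402 to 1655, 1259 to 2726, 2507 to 5096 and 331 to 740.0 CPM, against 3659 to 7247 CPM, with overlap only for SST. For 6 microglia markers (most abundant *Csf1r* in total RNA) they were 57.7 to 278, 44.0 to 70.4, 68.7 to 109 and 6.76 to 25.1 CPM, against 204 to 408 CPM, with overlap only for Gad2. Cerebellar sums in Gad2 and vGluT2 IPs were 397 to 1054 and 221 to 633 CPM, against 3669 to 4727 CPM for astrocytes, 714 to 1542 and 409 to 1057 CPM, against 3430.0 to 5824 CPM for oligodendrocytes and 22.4 to 84.1 and 6.21 to 13.7 CPM, against 84.4 to 148 CPM for microglia, without overlap. None of these glial markers was at 0 in a whole group, and the part of glial RNA in the differences was not tested. A lower value in total RNA may reflect fewer cells of a type or less RNA per cell, which cannot be told apart. In cerebral Gad2 IPs, 19 members were called (17 higher and 2 lower than total RNA), beside 68.7% of all genes (36.7% higher and 32% lower), with a median of 0.19 over members and 0.07 over all genes. PV IPs had 24 members (10 and 14), against 76.2% of all genes (37.3% and 38.9%), with medians of -0.08 and -0.01. SST IPs had 26 (9 and 17), against 69.5% (35.2% and 34.3%), and medians of -0.18 and 0.0037. In cerebral vGluT2 IPs there were 20 (9 and 11), against 68.1% (33.1% and 35%), and medians of 0.01 and -0.0027. With the mouse as a block this count was 9, and that of all genes 6098 in place of 10128. Cerebellar Gad2 IPs had 22 (18 and 4), against 67.3% (33.1% and 34.2%), with medians of 0.24 and 0.01. That count was 15 (11 and 4) without TMM and 19 (12 and 7) with the mouse as a block. Cerebellar vGluT2 IPs had 17 (10 and 7), against 69.9% (36.1% and 33.8%), with medians of 0.04 and 0.06. The balance of higher and lower members was not stable here, with 17 (7 and 10) without TMM, 17 (8 and 9) with the mouse as a block and 16 (8 and 8) against total RNA of the same line. CPM without TMM moves the median of all genes in this comparison by -0.10. The members' shares, from 50% to 76.5%, lay near or below those of all genes in 5 groups. In SST IPs the share was above, but without TMM it was below, with 21 of 34 members against 10202 of 14897 genes. It stayed above against total RNA of the same line (73.5% against 63.6%) and with the mouse as a block (79.4% against 66%). The length measure given above had medians of 0.51 in PV and 0.80 in SST IPs and -0.34 in cerebral total RNA. Over all mice its ranges overlapped between total RNA (-1.24 to 0.65) and PV (0.17 to 0.94), SST (-0.06 to 1.15), Gad2 (-0.73 to 0.20) and vGluT2 IPs (-0.56 to 0.38) of the cerebrum. So did those of cerebellar total RNA (-0.67 to 0.82) and Gad2 (-0.72 to 0.50) and vGluT2 IPs (-0.10 to 0.69). Within the controls of 1 line, IPs lay above total RNA without overlap for PV (0.27 to 0.91 and -1.16 to -0.09) and SST (0.35 to 1.15 and -0.83 to 0.13). In the cerebrum they overlapped for Gad2 (-0.47 to 0.20 and -0.77 to 0.64) and vGluT2 (-0.56 to 0.38 and -0.77 to 0.11). In the cerebellum they overlapped for controls of both lines and for HD of the Gad2 line. HD of the vGluT2 line did not overlap there, with IPs at -0.06 to 0.69 and total RNA at -0.67 to -0.26. Mean transcripts of *Dpm3* (0.616 kb) and *Mpdu1* (0.852 kb) are short and that of *Uggt1* (9.03 kb) is long, and the part of transcript length in the differences below was not tested.

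*Dpm1* was at 20.3 to 50.4 CPM (median 32.7) in cerebral Gad2 and 13.4 to 34.4 CPM (median 24.2) in cerebral vGluT2 IPs, against 9.13 to 19.3 CPM (median 12.5) in cerebral total RNA. All Gad2 IPs were above all total RNA (log2 fold change 1.34 ± 0.12, adjusted p = 8.70e-13, 12 of 12 above), and 11 of 12 vGluT2 IPs were (0.88 ± 0.11, adjusted p = 6.96e-09, 12 of 12 above). In the cerebellum, vGluT2 IPs at 24.2 to 44.4 CPM (median 26.5) were all above total RNA at 6.91 to 21.6 CPM (median 15.2) (log2 fold change 0.98 ± 0.14, adjusted p = 4.65e-07, 11 of 11 above). *Dpm3* went the other way, at 4.95 to 10.7 CPM (median 8.95) in PV, 6.03 to 14.9 CPM (median 7.54) in SST and 6.69 to 18.1 CPM (median 12.6) in cerebral vGluT2 IPs, against 10.48 to 32.5 CPM (median 18.1) in total RNA. Most PV and SST IPs were below all total RNA libraries (PV, log2 fold change -1.18 ± 0.15, adjusted p = 8.56e-09, 11 of 11 below, and SST, -1.24 ± 0.17, adjusted p = 1.69e-07, 9 of 9 below). The vGluT2 IPs overlapped more (-0.70 ± 0.14, adjusted p = 5.24e-05, 12 of 12 below). In the cerebellum *Dpm3* was at 9.56 to 25.9 CPM (median 13.8) in Gad2 IPs and 15.8 to 37.6 CPM (median 24.3) in total RNA, with overlap (-0.71 ± 0.15, adjusted p = 0.000160, 11 of 12 below). *Mpdu1* was at 22.2 to 51.3 CPM (median 31.4) in SST IPs and 36.8 to 99.7 CPM (median 63.1) in total RNA, and 7 of 9 SST IPs were below all total RNA (-0.87 ± 0.13, adjusted p = 5.81e-07, 9 of 9 below). *Dolk* was at 15.3 to 20.4 CPM (median 17.5) in cerebellar vGluT2 IPs and 18.5 to 38.3 CPM (median 26.7) in total RNA, with 8 of 11 IPs below all total RNA (-0.65 ± 0.11, adjusted p = 5.99e-06, 11 of 11 below). HD total RNA of the vGluT2 line held the highest of these values, and control total RNA of that line overlapped the IPs. These HD libraries stood apart from their controls in the length measure, and their part in the difference was not tested.

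*Dpagt1* split the cerebellar lines. It stood at 23.2 to 38.0 CPM (median 28.1) in Gad2 IPs, 5.43 to 8.79 CPM (median 8.24) in vGluT2 IPs and 14.6 to 21.97 CPM (median 17.8) in total RNA. All Gad2 IPs were above (log2 fold change 0.74 ± 0.08, adjusted p = 1.15e-08, 12 of 12 above) and all vGluT2 IPs below total RNA (-1.19 ± 0.10, adjusted p = 2.27e-11, 11 of 11 below). *Alg11* was at 22.4 to 42.6 CPM (median 34.6) in cerebral Gad2, 28.0 to 44.0 CPM (median 40.7) in PV and 25.4 to 48.9 CPM (median 37.3) in SST IPs, and at 7.33 to 39.4 CPM (median 18.5) in total RNA. Its ranges overlapped with total RNA in all 3, with every IP above the total RNA median (Gad2, 0.80 ± 0.17, adjusted p = 7.64e-05, 12 of 12 above, PV, 0.93 ± 0.18, adjusted p = 1.97e-05, 11 of 11 above, and SST, 0.90 ± 0.20, adjusted p = 0.000192, 9 of 9 above). In Gad2 IPs the call was lost against total RNA of the same line alone (log2 fold change 0.55, adjusted p = 0.0507, 0.000381 to 0.0507 over all alternatives). *Alg13* was at 1.52 to 5.98 CPM (median 4.35) in cerebral vGluT2 IPs and 1.12 to 4.79 CPM (median 2.05) in total RNA. The ranges overlapped, with IPs higher (0.73 ± 0.19, adjusted p = 0.000727, 11 of 12 above), and the call was lost with the mouse as a block (adjusted p = 0.0636, 0.00112 to 0.0636 over all alternatives). With that block the log2 fold change was 0.83. *Alg6*, which adds the first glucose in the lumen, was at 3.12 to 7.02 CPM (median 4.78) in cerebral Gad2, 2.66 to 6.78 CPM (median 6.17) in cerebral vGluT2 and 6.85 to 13.8 CPM (median 9.83) in cerebellar vGluT2 IPs. Total RNA held 1.38 to 5.33 CPM (median 2.90) in the cerebrum and 3.33 to 8.09 CPM (median 5.19) in the cerebellum. The IPs were higher with overlap (in the same order, 0.77 ± 0.15, adjusted p = 2.45e-05, 12 of 12 above, 0.82 ± 0.16, adjusted p = 3.33e-05, 11 of 12 above, and 0.80 ± 0.14, adjusted p = 1.89e-05, 11 of 11 above). The cerebral calls were lost, for Gad2 against total RNA of the same line alone (adjusted p = 0.147, 0.000186 to 0.147 over all alternatives) and for vGluT2 with the mouse as a block (0.0911, 6.59e-05 to 0.0911 over all alternatives). The log2 fold change was 0.36 in this Gad2 fit and 0.86 in this vGluT2 fit.

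*Tusc3* was at 237 to 341 CPM (median 253) in cerebral Gad2, 239.9 to 363 CPM (median 298) in cerebral vGluT2, 91.0 to 113 CPM (median 105) in PV and 121 to 186 CPM (median 153) in SST IPs, against 160.2 to 237 CPM (median 178) in cerebral total RNA. All Gad2 (log2 fold change 0.62 ± 0.06, adjusted p = 1.88e-11, 12 of 12 above) and vGluT2 IPs (0.67 ± 0.06, adjusted p = 4.64e-13, 12 of 12 above) were above all total RNA, the Gad2 IPs by a narrow margin. All PV IPs were below it (-0.75 ± 0.06, adjusted p = 1.26e-13, 11 of 11 below). *Magt1* was at 1.64 to 8.79 CPM (median 6.12) in cerebral Gad2 and 1.38 to 4.64 CPM (median 2.93) in cerebral vGluT2 IPs, against 5.16 to 31.4 CPM (median 14.4) in total RNA. The vGluT2 IPs were all below total RNA (-2.32 ± 0.24, adjusted p = 6.63e-11, 12 of 12 below), and the Gad2 IPs below its median with overlap (-1.39 ± 0.24, adjusted p = 3.44e-06, 12 of 12 below). In the cerebellum *Magt1* was at 6.36 to 17.3 CPM (median 9.95) in Gad2 IPs, 2.02 to 11.3 CPM (median 5.85) in vGluT2 IPs and 7.58 to 36.2 CPM (median 17.99) in total RNA. Both IP groups overlapped total RNA at the lower end (Gad2, -0.98 ± 0.21, adjusted p = 0.000212, 12 of 12 below, and vGluT2, -1.83 ± 0.23, adjusted p = 6.11e-08, 11 of 11 below). *Ddost*, at 65.6 to 86.4 CPM (median 77.2) in PV and 64.0 to 107 CPM (median 85.7) in SST IPs, was lower than in total RNA at 91.2 to 231 CPM (median 157). The PV IPs did not overlap it (-0.95 ± 0.10, adjusted p = 6.92e-11, 11 of 11 below), and 6 of 9 SST IPs were below all of it (-0.80 ± 0.11, adjusted p = 2.64e-07, 9 of 9 below). *Dad1*, a small shared subunit, was at 29.8 to 80.5 CPM (median 44.9) in SST IPs and 56.7 to 165 CPM (median 91.6) in total RNA, with 7 of 9 IPs below all total RNA (-0.95 ± 0.15, adjusted p = 1.38e-06, 9 of 9 below).

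*Stt3a* was at 22.5 to 42.3 CPM (median 35.7) in cerebral Gad2, 23.6 to 60.6 CPM (median 41.3) in PV and 25.9 to 60.5 CPM (median 46.4) in SST IPs, against 9.11 to 48.0 CPM (median 22.7) in total RNA. These ranges overlapped, with the IPs above (Gad2, 0.57 ± 0.18, adjusted p = 0.00527, 11 of 12 above, PV, 0.89 ± 0.20, adjusted p = 0.000157, 11 of 11 above, and SST, 0.96 ± 0.22, adjusted p = 0.000219, 9 of 9 above). In Gad2 IPs this was lost with the mouse as a block (adjusted p = 0.280) and against total RNA of the same line alone (0.238, with 0.0149 to 0.280 over all alternatives). The log2 fold changes in these fits were 0.41 and 0.37. *Stt3b* was at 88.0 to 132 CPM (median 116) in cerebellar Gad2 IPs and 46.2 to 93.3 CPM (median 68.0) in total RNA, with 11 of 12 IPs above all total RNA (0.72 ± 0.11, adjusted p = 1.29e-06, 12 of 12 above). *Uggt1* was at 58.7 to 77.3 CPM (median 68.5) in PV IPs and 18.5 to 47.8 CPM (median 35.6) in cerebral total RNA, without overlap (1.0 ± 0.10, adjusted p = 5.91e-11, 11 of 11 above). In cerebellar Gad2 IPs it was at 54.9 to 98.6 CPM (median 77.6), against 34.3 to 67.5 CPM (median 52.9) in total RNA, with 10 of 12 IPs above all of it (0.66 ± 0.10, adjusted p = 2.89e-06, 12 of 12 above). *Prkcsh*, the other subunit beside *Ganab* in glucosidase II, was at 103 to 175 CPM (median 119.7) in cerebellar Gad2 IPs and 56.5 to 135 CPM (median 73.1) in total RNA, with overlap (0.69 ± 0.11, adjusted p = 2.04e-06, 12 of 12 above). *Mgat1* was at 30.0 to 51.8 CPM (median 41.3) in cerebellar vGluT2 IPs and 44.4 to 95.5 CPM (median 58.4) in total RNA, where 7 of 11 IPs were below all total RNA (-0.63 ± 0.09, adjusted p = 4.01e-07, 11 of 11 below). The highest total RNA values were again from HD of the vGluT2 line, and control total RNA of that line overlapped the IPs. *Alg13*, *Alg2*, *Tusc3*, *Uggt1* and *Mgat1* were the 5 members called in all 6 IP groups. Of all genes, 67.3% to 76.2% were called in each group, and the share called in all 6 was not counted. The direction could differ between groups, as for *Tusc3*, above total RNA in cerebral Gad2 and vGluT2 IPs and below it in PV IPs.

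HD and control mice were compared within each IP group. In the 5 IP groups other than cerebellar vGluT2, edgeR called 0 of the 34 members, and DESeq2 also called 0 in each. Of all genes edgeR called 0.0279% in cerebral Gad2 IPs (4 of 14342), 0.0408% in PV IPs (6 of 14713), and 0% in SST IPs (0 of 14689). The shares were 0% in cerebral vGluT2 IPs (0 of 14354) and 0.0142% in cerebellar Gad2 IPs (2 of 14098). DESeq2 called 75, 42, 2, 25 and 22 genes in the same order of groups. At an unadjusted p under 0.05 there were 2 members in cerebral Gad2 IPs, where all genes gave 9.2%, and 1 in PV IPs, where all genes gave 4.21%. SST, cerebral vGluT2 and cerebellar Gad2 IPs had 0, 0 and 0, where all genes gave 1.47%, 7.61% and 2.41%. The member medians were 0.09, 0.02, -0.02, 0.07 and 0.05 in the same order of groups, with -0.0049, 0.01, -0.01, -0.01 and -0.01 over all genes.

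The genes closest to a call in these groups are given with their values. In cerebral Gad2 IPs, *Man1b1* was at 70.7 to 97.8 CPM (median 84.9) in controls and 93.7 to 133 CPM (median 108.3) in HD, and *Mgat1* at 51.7 to 68.0 CPM (median 62.1) and 60.7 to 91.8 CPM (median 75.0). HD libraries were mostly higher and overlapped controls for both, and neither passed (*Man1b1*, log2 fold change 0.35 ± 0.10, adjusted p = 0.427, 6 of 6 above, and *Mgat1*, 0.28 ± 0.11, adjusted p = 0.536, 5 of 6 above). In PV IPs, *Magt1* was at 11.6 to 20.2 CPM (median 17.0) in controls and 10.3, 12.8, 13.2, 14.1 and 16.1 CPM in HD, and *Alg9*, a lumenal mannosyltransferase, at 17.0 to 20.2 CPM (median 18.6) and 19.7, 20.1, 20.3, 20.5 and 22.1 CPM. Both overlapped and did not pass (*Magt1*, -0.30 ± 0.14, adjusted p = 0.9998, 5 of 5 below, and *Alg9*, 0.14 ± 0.08, adjusted p = 0.9998, 5 of 5 above). In SST IPs, *Alg3* was at 7.33, 7.35, 7.52, 8.34 and 8.44 CPM in controls and 6.47, 6.53, 6.72 and 7.57 CPM in HD, and *Ostc*, a subunit of the *Stt3a* complex, at 18.9, 22.9, 25.2, 27.8 and 34.8 CPM and 27.7, 30.6, 31.1 and 33.2 CPM. For *Alg3*, 3 of 4 HD libraries were below all controls, whereas *Ostc* overlapped widely (*Alg3*, -0.22 ± 0.15, adjusted p = 0.9999, 3 of 4 below, and *Ostc*, 0.22 ± 0.17, adjusted p = 0.9999, 4 of 4 above). In cerebral vGluT2 IPs, *Magt1* was at 2.14 to 4.64 CPM (median 3.66) in controls and 1.38 to 3.12 CPM (median 2.34) in HD, and *Stt3b* at 53.4 to 90.9 CPM (median 83.0) and 55.1 to 76.1 CPM (median 61.3). HD values were mostly lower, with overlap (*Magt1*, -0.58 ± 0.28, adjusted p = 0.663, 6 of 6 below, and *Stt3b*, -0.25 ± 0.13, adjusted p = 0.663, 6 of 6 below). In cerebellar Gad2 IPs, *Alg13* was at 5.08 to 14.6 CPM (median 6.31) in controls and 3.36 to 6.97 CPM (median 6.38) in HD, with control replicate 5 apart at the top. *Alg5* was at 11.9 to 20.2 CPM (median 17.4) and 17.8 to 21.1 CPM (median 18.9). Only 2 of 6 HD libraries were below the control median of *Alg13*, both genes overlapped, and neither passed (*Alg13*, -0.40 ± 0.25, adjusted p = 1, 2 of 6 below, and *Alg5*, 0.14 ± 0.12, adjusted p = 1, 6 of 6 above).

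In cerebellar vGluT2 IPs, 2 of the 34 members were called (5.88%), 1 higher and 1 lower, where 2.09% of all genes were called (282 of 13487). DESeq2 also called 2 members, but 663 of 13445 genes. At an unadjusted p under 0.05 there were 6 members (15.4% of all genes), and the medians were -0.04 over members and -0.01 over all genes. *Alg3* was at 9.17, 9.49, 10.1, 13.2 and 13.8 CPM in controls and 4.53 to 7.17 CPM (median 6.24) in HD. All 6 HD libraries were below all 5 controls (log2 fold change -0.84 ± 0.17, adjusted p = 0.0215, 6 of 6 below). *Man1b1* was at 59.04, 65.2, 67.0, 68.8 and 73.0 CPM in controls and 82.6 to 101 CPM (median 90.8) in HD. All 6 HD libraries were above all controls (log2 fold change 0.49 ± 0.10, adjusted p = 0.0262, 6 of 6 above). Both calls were lost with the replicate number as a block (*Alg3* adjusted p = 0.0958 and *Man1b1* 0.134). They also depended on single libraries, while the fold changes stayed close. That of *Alg3* was lost without control replicate 1 or 2 (adjusted p = 0.0624 and 0.0520) or HD replicate 1 (0.0584, with 5.09e-05 to 0.0958 over all alternatives). That of *Man1b1* was lost without control replicate 2, 3, 4 or 5 (adjusted p = 0.0652, 0.0606, 0.0594 and 0.0631) or HD replicate 6 (0.0577, with 0.000489 to 0.134 over all alternatives). In these fits the log2 fold change was -0.76 to -0.84 for *Alg3* and 0.45 to 0.50 for *Man1b1*. The count of members was 0 without control replicate 2, and 1 without control replicate 1, 3, 4 or 5 or HD replicate 1 or 6. The granule cell markers summed to 3995 to 5454 CPM in controls and 2211 to 4676 CPM in HD, with overlap (4 of 4 detected, most abundant *Zic1*). Of the 11 marker lists only the 4 striatal markers (most abundant *Ppp1r1b*) separated the genotypes, with sums of 76.6 to 114 CPM in controls and 51.3 to 74.1 CPM in HD. Striatal is the name of the list, whose genes summed to 793 to 1455 CPM in control cerebellar Gad2 IPs. The part of the granule cell and striatal markers in the 2 results was not tested.

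Whether the HD effect differed between cell types or regions was tested as an interaction. Between cerebellar vGluT2 and Gad2 IPs, edgeR called 0 members (3 at an unadjusted p under 0.05) and 0.107% of all genes (7.01% at the unadjusted p). The difference for *Alg3* was -0.82 ± 0.21 (log2 ± SE, adjusted p = 0.160, 0.0330 to 0.425 over all alternatives), negative in cerebellar vGluT2 IPs where 6 of 6 HD libraries were below all controls. By DESeq2 it was -0.81 and passed (adjusted p = 0.0330), the only member it called, among 67 genes. Between cerebellar and cerebral Gad2 IPs, edgeR called 0 members (1 at an unadjusted p under 0.05, with 0 called by DESeq2 and 0 with the mouse as a block) and 0% of all genes (5.33% unadjusted), and the lowest p belonged to *Stt3b* (0.29 ± 0.14, adjusted p = 0.843). Between cerebellar and cerebral vGluT2 IPs it called 0 members (3 unadjusted, 0 by DESeq2 and 0 with the mouse as a block) and 0.316% of all genes (7.22% unadjusted), with *Alg3* again lowest (-0.79 ± 0.25, adjusted p = 0.280). The calls of *Alg3* and *Man1b1* in cerebellar vGluT2 IPs are thus not shown by edgeR to differ from cerebellar Gad2 or cerebral vGluT2 IPs, and differences from cerebral Gad2, PV and SST IPs were not tested. The mouse block was chosen after seeing the data.

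**Figure D3:**
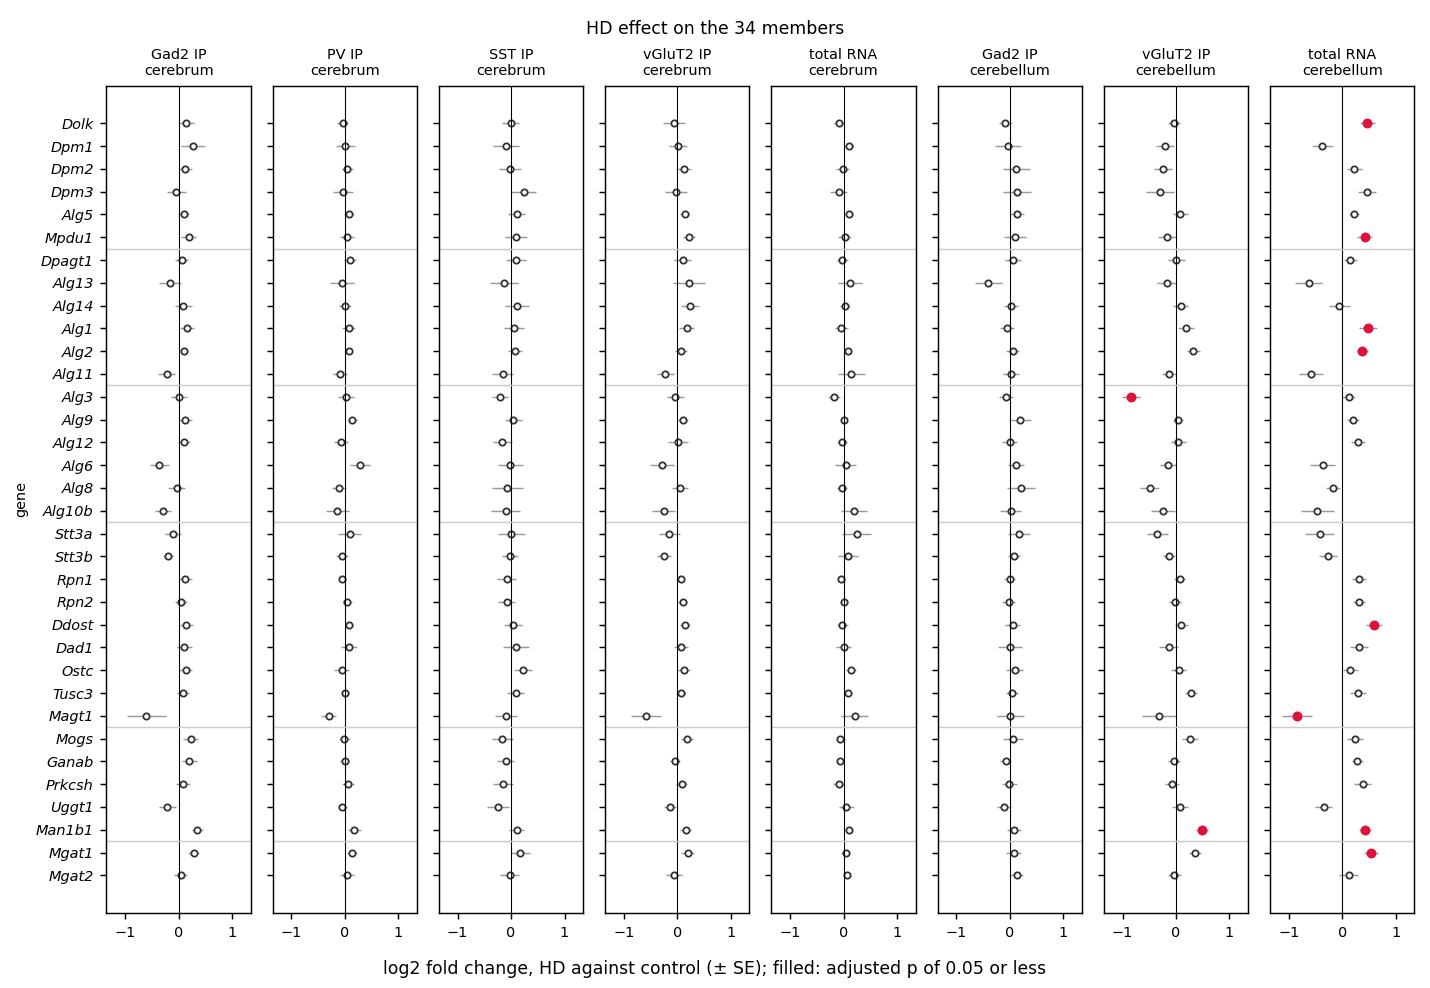
Log2 fold change of HD against control for the 34 genes in the 6 IP groups and in cerebral and cerebellar total RNA, with bars for SE and filled red points for calls at an adjusted p of 0.05 or less. Alg3 (-0.84) and Man1b1 (0.49) are filled in cerebellar vGluT2 IPs, and 8 genes in cerebellar total RNA.

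In cerebral total RNA, with the line as a covariate, edgeR called 0 members (0 at an unadjusted p under 0.05, and 0 called by DESeq2), against 0.652% of all genes (97 of 14880, and 7.09% at the unadjusted p). The medians were 0.03 over members and 0.03 over all genes. *Alg2* was at 158 to 206 CPM (median 167) in controls and 163 to 215 CPM (median 176) in HD, and *Alg3* at 8.76 to 20.1 CPM (median 13.1) and 7.44 to 18.4 CPM (median 10.52). Both overlapped, with 1 of 12 HD libraries beyond all controls, and did not pass (*Alg2*, 0.08 ± 0.05, adjusted p = 0.900, 10 of 12 above, and *Alg3*, -0.17 ± 0.11, adjusted p = 0.920, 10 of 12 below).

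Cerebellar total RNA, again with the line as a covariate, was the comparison of HD and control with the most member calls. These were 8 of the 34 members (23.5%), against 25.6% of all genes (3704 of 14477), so the members' share was close to that of all genes. Of the 8, 7 were higher and 1 lower in HD, where all genes gave 12.6% and 13%. At an unadjusted p under 0.05 there were 18 members and 44.7% of all genes. The median was 0.22 over members and -0.0027 over all genes. The calls came with a difference in the length measure in 1 of the 2 lines. It was 0.38 to 0.72 in controls and -0.67 to -0.26 in HD of the vGluT2 line, without overlap, and -0.14 to 0.82 and -0.50 to 0.75 in the Gad2 line. With the length measure as a term, chosen after the data had been seen, edgeR called 0 members (4 at an unadjusted p under 0.05) and 92 genes in all. The vGluT2 line alone gave 21 members (61.8%, beside 51.7% of all genes), and the Gad2 line alone 0 (0 at an unadjusted p under 0.05). In the vGluT2 line the length measure and genotype cannot be told apart.

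Of 11 lists of cell type markers, all genes were detected in each, and 6 lists separated HD from control in cerebellar total RNA of the vGluT2 line. Higher in HD without overlap were the 6 microglia markers (most abundant *Csf1r*, sums of 84.4 to 96.1 CPM in controls and 137 to 148 CPM in HD) and the 4 cerebral vGluT2 markers (most abundant *Slc17a7*, sums of 625 to 807 CPM in controls and 1253 to 1430.0 CPM in HD). So were the 4 PV cell (most abundant *Pvalb*, sums of 1517 to 1931 CPM in controls and 1995 to 2672 CPM in HD) and 4 striatal markers (most abundant *Ppp1r1b*, sums of 328 to 386 CPM in controls and 413 to 479 CPM in HD). Lower without overlap were the 4 Purkinje cell (most abundant *Calb1*, sums of 1396 to 1636 CPM in controls and 1173 to 1245 CPM in HD) and 3 GABAergic markers (most abundant *Gad1*, sums of 803 to 981 CPM in controls and 671 to 794 CPM in HD). The 4 granule cell markers (most abundant *Zic1*, sums of 1689 to 2862 CPM in controls and 834 to 2082 CPM in HD) had a lower median in HD and overlapped, and the oligodendrocyte, astrocyte, endothelial and SST sums overlapped too. In the Gad2 line 2 lists separated the genotypes, with lower sums in HD for the 6 oligodendrocyte (most abundant *Mbp*, sums of 4205 to 5002 CPM in controls and 3430.0 to 3493 CPM in HD) and the Purkinje cell markers (sums of 1313 to 1609 CPM in controls and 1191 to 1295 CPM in HD). The PV, striatal and cerebral vGluT2 lists are named for cells of the cerebrum. In control cerebellar Gad2 IPs *Pvalb* was at 3003 to 5292 CPM and the striatal list summed to 793 to 1455 CPM. *Slc17a7* was at 1142 to 1691 CPM in control cerebellar vGluT2 IPs. The sums of these lists in the cerebellum thus do not stand for the cells in their names. The part of the markers of any list in the calls was not tested.

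Leaving out any 1 of the 14 libraries moved the count of 8 by over 1.5 times. It was 15, 1 and 15 without control replicate 1, 2 or 3 of the Gad2 line, and 5, 0 and 23 without HD replicate 1, 2 or 3. In the vGluT2 line it was 0 without any 1 of the 4 controls, and 5, 0, 0 and 0 without HD replicate 1, 2, 3 or 4. The calls of *Dolk*, *Alg1*, *Ddost*, *Magt1*, *Man1b1* and *Mgat1*, described next, were all lost without HD replicate 2 of the Gad2 line and without any 1 control or HD replicate 2, 3 or 4 of the vGluT2 line (adjusted p from 0.0516 to 0.104). All but that of *Mgat1* were lost without control replicate 2 of the Gad2 line (0.0507 to 0.0909). Those of *Alg1* and *Magt1* were lost without HD replicate 1 of the Gad2 line (0.0615 and 0.0538), and those of *Alg1*, *Dolk* and *Magt1* without HD replicate 1 of the vGluT2 line (0.0775, 0.0594 and 0.0729). In the fits without a library that lost these calls, the log2 fold changes stayed close, at 0.41 to 0.49 for *Dolk*, 0.42 to 0.50 for *Alg1*, 0.54 to 0.58 for *Ddost*, -0.70 to -0.87 for *Magt1*, 0.39 to 0.44 for *Man1b1* and 0.49 to 0.54 for *Mgat1*. The call of *Alg1* was also lost with the size factors of DESeq2 (0.0521) and without the filter on low counts (0.0587), where 6 and 6 members were called. Over all alternatives the adjusted p of these 6 genes ran from 0.000397 to 0.9999.

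The fold changes below come from the fit of both lines. For *Dolk*, *Alg1*, *Ddost*, *Magt1*, *Man1b1* and *Mgat1* the log2 fold changes were 0.75, 0.77, 0.91, -1.349, 0.59 and 0.79 in the vGluT2 line alone and 0.07, 0.06, 0.14, -0.20, 0.18 and 0.18 in the Gad2 line alone. By role, *Dolk* was at 18.5, 19.9, 23.5 and 24.4 CPM in controls and 33.4, 36.8, 38.1 and 38.3 CPM in HD of the vGluT2 line, and 24.0, 25.4 and 27.9 CPM and 20.6, 28.0 and 33.1 CPM in the Gad2 line. Only the vGluT2 line separated HD from control (log2 fold change 0.47 ± 0.14, adjusted p = 0.0354, 6 of 7 above). *Alg1* was at 27.3, 28.1, 29.6 and 33.6 CPM in controls and 44.4, 50.7, 52.5 and 56.98 CPM in HD of the vGluT2 line, and 26.8, 41.1 and 43.2 CPM and 27.6, 42.0 and 46.9 CPM in the Gad2 line. HD was higher without overlap in the vGluT2 line and overlapped controls in the Gad2 line (log2 fold change 0.48 ± 0.17, adjusted p = 0.0476, 6 of 7 above). *Ddost* was at 78.2, 83.6, 83.6 and 90.5 CPM in controls and 148, 149, 150.1 and 191 CPM in HD of the vGluT2 line, and 84.7, 110.3 and 112 CPM and 88.2, 113 and 137 CPM in the Gad2 line. All vGluT2 line HD libraries were above all their controls, while the Gad2 line overlapped (log2 fold change 0.59 ± 0.15, adjusted p = 0.0276, 7 of 7 above). *Magt1* was at 23.5, 28.4, 35.2 and 36.2 CPM in controls and 7.58, 13.3, 14.0 and 14.2 CPM in HD of the vGluT2 line, and 16.4, 18.7 and 34.4 CPM and 12.7, 17.3 and 30.7 CPM in the Gad2 line. It was lower in HD in the vGluT2 line, with overlap in the Gad2 line (log2 fold change -0.85 ± 0.27, adjusted p = 0.0391, 6 of 7 below). *Man1b1* was at 73.6, 75.3, 82.8 and 83.7 CPM in controls and 105, 112, 117 and 145 CPM in HD of the vGluT2 line, and 83.2, 90.0 and 94.1 CPM and 90.4, 103 and 109.6 CPM in the Gad2 line. HD was higher without overlap in the vGluT2 line, and 2 of 3 HD libraries were above all controls in the Gad2 line (log2 fold change 0.42 ± 0.11, adjusted p = 0.0274, 7 of 7 above). *Mgat1* was at 44.4, 48.6, 49.8 and 53.6 CPM in controls and 69.5, 83.9, 93.8 and 95.5 CPM in HD of the vGluT2 line, and 53.7, 56.5 and 60.3 CPM and 55.0, 66.6 and 72.4 CPM in the Gad2 line. The vGluT2 line again separated fully and the Gad2 line did not (log2 fold change 0.54 ± 0.13, adjusted p = 0.0268, 7 of 7 above). The other calls were *Mpdu1*, at 47.8 to 75.4 CPM (median 57.9) in controls and 51.7 to 92.6 CPM (median 85.3) in HD, and *Alg2*, at 124 to 139.7 CPM (median 128) and 132 to 220.4 CPM (median 167). Both overlapped and were higher in HD (0.42 ± 0.14, adjusted p = 0.0455, 6 of 7 above, and 0.37 ± 0.10, adjusted p = 0.0300, 7 of 7 above). No lumenal assembly gene was called by edgeR (1 of 6 at an unadjusted p under 0.05).

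**Figure D4:**
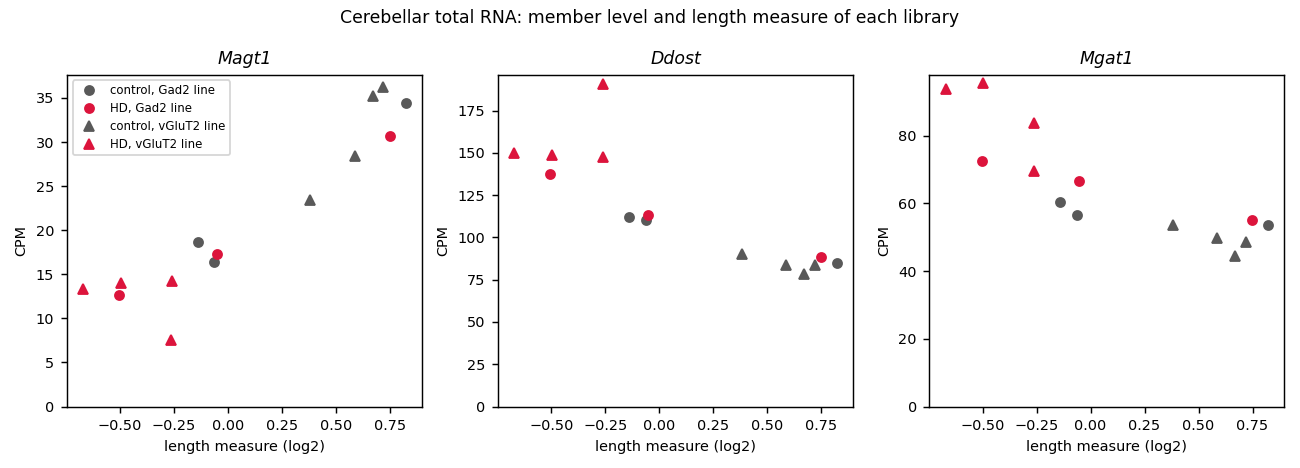
TMM-normalized CPM of Magt1, Ddost and Mgat1 in each cerebellar total RNA library against its length measure (median log2 CPM of long minus short transcripts), with HD in red, control in grey, the Gad2 line as circles and the vGluT2 line as triangles. HD libraries of the vGluT2 line sit at length measures from -0.67 to -0.26 and controls of that line from 0.38 to 0.72.

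Related genes were counted from 3 further lists, 44 other genes of the pathway, 13 of 14 ER stress genes that could be matched by symbol, and 17 genes of the translocon and of protein targeting. None of them was called by edgeR in any IP group or in cerebral total RNA between HD and control. At an unadjusted p under 0.05 there were 5, 0, 0, 2, 0, 5 and 2 of the other pathway genes in cerebral Gad2, PV, SST, cerebral vGluT2, cerebellar Gad2 and cerebellar vGluT2 IPs and in cerebral total RNA. In the same order there were 0, 1, 0, 0, 0, 2 and 0 of the ER stress genes and 4, 0, 0, 3, 0, 1 and 0 of the translocon genes. Of all genes, 9.2%, 4.21%, 1.47%, 7.61%, 2.41%, 15.4% and 7.09% were under this p. In cerebellar total RNA the calls were 11 of 44 (5 higher and 6 lower) of the other pathway genes, 3 of 13 (1 higher and 2 lower) of the ER stress genes and 5 of 17 (4 higher and 1 lower) of the translocon genes, beside 25.6% of all genes. Each of these 3 lists had 0 calls with the length term, with the replicate block and in the Gad2 line alone, and 30, 5 and 12 in the vGluT2 line alone, where 51.7% of all genes were called. At an unadjusted p under 0.05 the length term gave 3, 1 and 3, the replicate block 14, 4 and 6 and the Gad2 line 0, 0 and 0. The share of all genes at this p is not given for these fits, so the counts cannot be set against it. It was 44.7% in the reported fit of cerebellar total RNA. Within that limit, higher in HD were *Dhdds* (0.54 ± 0.13), *Pmm2* (0.38 ± 0.12), *Gmppb* (0.43 ± 0.13), *Tmem258* (0.43 ± 0.13), *Calr* (0.45 ± 0.14), *Xbp1* (0.49 ± 0.13), *Ssr2* (0.63 ± 0.16), *Ssr4* (0.55 ± 0.17), *Spcs1* (0.39 ± 0.11) and *Srprb* (0.40 ± 0.11). Lower in HD were *Uggt2* (-0.98 ± 0.24), *Edem3* (-0.98 ± 0.32), *Man1a2* (-0.87 ± 0.29), *Mgat4a* (-0.81 ± 0.24), *Fut8* (-0.73 ± 0.20), *Slc35a1* (-0.89 ± 0.25), *Hsp90b1* (-0.71 ± 0.19), *Dnajc3* (-0.85 ± 0.26) and *Srp54a* (-0.73 ± 0.22). Among these, *Dhdds* makes the dolichol chain, *Fut8* adds the core fucose, *Xbp1* is a transcription factor of the ER stress response and *Ssr2* is a subunit of the translocon-associated complex. Between PV and cerebral Gad2 IPs of controls, 13 of 17 (0 higher and 13 lower) translocon, 9 of 13 (1 higher and 8 lower) ER stress and 20 of 44 (11 higher and 9 lower) other pathway genes were called, against 53.8% of all genes. Between cerebellar vGluT2 and Gad2 IPs these were 6 of 17 (3 higher and 3 lower), 8 of 13 (2 higher and 6 lower) and 25 of 44 (9 higher and 16 lower), against 58%.

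RefSeq promoters (GRCm38.p6, 250 bases before to 50 after the start) were matched for 29 of the 34 members and searched on both strands for letters of ER stress response elements. CCAAT, 9 bases and CCACG were found in 1 member, *Alg12*, which adds a mannose in the lumen. They were found in 37 of 27025 genes with a RefSeq promoter (0.137%) and in 5 of 12 ER stress genes. A gene was counted if any of its promoters held the letters. The site of *Alg12* also lies in the promoter of *Creld2*, on the other strand. *Creld2* is 1 of these ER stress genes, so the site is counted in both. The letters begin at base -220 from the start, in chr15:88819269-88819568 on the minus strand, and are shown with their surroundings in capitals for the searched letters and the bases between them.
*Alg12*: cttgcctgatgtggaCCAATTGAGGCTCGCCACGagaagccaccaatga
ATTGG, 1 base and CCACG were found in 0 members and in 12 of 27025 genes with a RefSeq promoter (0.0444%). A match describes letters only.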

How the data were processed

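The authors aligned poly(A) reads to GRCm38.p6 with STAR, quantified them with Salmon and deposited 1 estimated count per gene for each of 106 libraries (67 IP and 39 total RNA) from 45 mice; 8.58% of the deposited values are not whole. Libraries are stranded, and the pipeline ran with default settings. The annotation release and the use of strand in counting are not given. Counts were rounded, the 92 spike-in entries (at most 4.45% of a library) left out, and CPM scaled by TMM in edgeR 4.0.16 (R 4.3.3). Genes that code for protein and averaged over 10 counts were tested with edgeR's quasi-likelihood test, after a test on simulated data, with Benjamini-Hochberg adjustment over all genes tested. Symbols, types and lengths came from GENCODE M21, which held 55141 of the 55401 IDs. IP and total RNA of a mouse, and its cerebellum and cerebrum, were paired by the mouse number in the labels. Members and lists were chosen with earlier results of these data known. Values per library are given for members called between HD and control (at most 6 per comparison, by fold change, or the 2 with the lowest p where none was called), up to 6 called members in each other comparison, the member with the lowest p in each interaction, and both paralog pairs; the other genes were named after their values were seen. Alternatives were DESeq2 1.42.0, its size factors, CPM without TMM, no filter, edgeR's own filter, all gene types, blocks for replicate or mouse, single lines, the longest transcript, and each library left out. A transcript length term, and the mouse as a block in the interactions of region, were added after seeing the data. Tables and plots were made with matplotlib 3.10.9, pandas 2.3.3 and numpy 2.4.6 in Python 3.11.15.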

Additional observations from a re-analysis of the deposited data

Results flagged for a closer look

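In 12 of 150 pairs of a gene and a group, 1 library stood apart from the others by the gap to its neighbor relative to the range, where chance gives about 1 in 20 groups. In control cerebral vGluT2 IPs, replicate 1 was lowest for *Alg2* at 113 CPM (next 153) and *Stt3a* at 14.96 CPM (next 32.1) and highest for *Mgat1* at 80.9 CPM (next 63.8). In HD cerebellar Gad2 IPs, replicate 4 was lowest for *Stt3a* at 19.9 CPM (next 42.6) and *Stt3b* at 88.0 CPM (next 117). In HD cerebellar total RNA of the vGluT2 line, replicate 1 was highest for *Ddost* at 191 CPM (next 150.1) and lowest for *Magt1* at 7.58 CPM (next 13.3). In control PV IPs, replicate 6 was lowest for *Alg13* at 2.21 CPM (next 3.75) and highest for *Man1b1* at 102 CPM (next 82.8). *Alg13* was highest in control cerebellar Gad2 IP replicate 5 at 14.6 CPM (next 7.23). *Tusc3* was highest in control cerebral Gad2 IP replicate 6 at 313 CPM (next 257) and in control SST line total RNA replicate 1 at 236 CPM (next 178).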

How the results depend on the processing

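Of the member counts under the alternatives fixed with the design, 314 stayed within 1.5 times the reported count and 30 did not, and under those chosen after seeing the data (the length term, and the mouse as a block in the interactions of region) 8 and 4. Reported counts of 0 that stayed 0 are among those that stayed. The 314 under the alternatives fixed with the design thus say little of the comparisons with calls. Of single values, 1544 kept direction and side of the threshold (or stayed within the replicate SD) under these alternatives, 115 no longer passed, 1 newly passed, 89 moved by more than the SD and 4 reversed, and under the later ones these were 32, 16, 0, 8 and 2. The cause was not tested for any change below, except where fewer libraries were used.

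In cerebellar vGluT2 IPs, HD against control called 2 members, but 0 with the replicate number as a block (*Alg3* adjusted p = 0.0958, *Man1b1* 0.134), 4 with the length term, and 0 to 2 with each library left out. With the block the log2 fold changes were -0.78 for *Alg3* and 0.46 for *Man1b1*. The replicate number is not shown by the values to pair HD and control mice: in no IP comparison did all replicates correlate above 0.1 with their namesake. In cerebral Gad2 IPs, replicates 1, 2, 4 and 6 did so (0.52, 0.41, 0.42 and 0.49), each closest to its namesake. Replicates 3 and 5 did not (-0.30 and -0.03). The longer-read HD IPs had no namesake, and a pairing by mouse number was not fitted. In total RNA, compared within each line, all 3 replicates were above 0.1 in the cerebrum of the Gad2 line (0.90, 0.38 and 0.76). This did not hold in the other 3 lines or in either line of the cerebellum. The numbers of neither total RNA comparison as a whole are thus shown to pair mice. In cerebellar total RNA the 8 members became 0 with the replicate block (9 of all genes), 0 with the length term, 0 in the Gad2 line alone, 0 there with the length term, 21 in the vGluT2 line alone (7565 of 14630 genes), 0 there with the length term (0 of all genes), and 0 to 23 with each library left out. For *Dolk*, *Alg1*, *Ddost*, *Magt1*, *Man1b1* and *Mgat1* the log2 fold changes were 0.47, 0.48, 0.59, -0.85, 0.42 and 0.54 as reported, 0.47, 0.48, 0.58, -0.87, 0.42 and 0.53 with the replicate block and 0.14, 0.02, 0.24, -0.18, 0.27 and 0.26 with the length term in both lines. In the vGluT2 line with the length term the log2 fold changes were -1.10 for *Magt1*, 1.14 for *Ddost*, 0.92 for *Man1b1*, 0.56 for *Dolk*, 0.14 for *Alg1* and 0.14 for *Mgat1*, and since HD and control of this line do not overlap in the length measure, the 2 cannot be told apart and the lost calls do not show that the values were equal. In the Gad2 line with the length term, *Alg1* (-0.034) and *Dolk* (-0.0019, log2) took the other sign. In the interaction of cerebellar vGluT2 and Gad2 IPs, 0 members became 1 with DESeq2.

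Between control cerebral vGluT2 and Gad2 IPs the 4 members became 9 without TMM, and 2 to 8 with each library left out. With these 2 groups fitted alone, *Dpagt1* did not pass (adjusted p = 0.0523), nor did *Magt1* between cerebellar vGluT2 and Gad2 IPs (0.0546) and between the regions in Gad2 IPs (0.0583), and without TMM *Alg3* did not pass between PV and SST IPs (0.0521). In cerebral vGluT2 IPs against total RNA, 20 became 9 with the mouse as a block, and in cerebral Gad2 IPs 6770 in place of 10180 of all genes (13 members) were called against total RNA of the same line. With the longest transcript, the log2 ratio of *Stt3a* to *Stt3b* per kb took the other sign in control cerebral Gad2 (-1.42), PV (-1.42), SST (-1.31) and cerebellar vGluT2 IPs (-1.07).

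Counts of all genes called between HD and control moved by more than 1.5 times under several alternatives. With DESeq2 they were 75 (from 4) in cerebral Gad2, 42 (from 6) in PV, 2 (from 0) in SST, 25 (from 0) in cerebral vGluT2, 22 (from 2) in cerebellar Gad2 and 663 (from 282) in cerebellar vGluT2 IPs, and 213 (from 97) in cerebral total RNA. With all IPs in 1 fit they were 25, 0, 0, 4, 11 and 521 in the same order of IPs. With the replicate block they were 9 in cerebral Gad2, 0 in PV and 109 in cerebellar vGluT2 IPs, and with the length term 10 in PV and 740 in cerebellar vGluT2 IPs and 526 in cerebral total RNA. Without the SST line cerebral total RNA gave 32, and each line alone 0.

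Library totals of 21905221 or more limit genes such as *Magt1*, at 1.38 CPM in the lowest library, more than *Tusc3*. With 3 to 6 mice per group, members that did not pass between HD and control are not shown to be equal.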
